A study of Homo sapiens with 25 samples.

Results

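NB4 cells treated for 24 h with the LSD1 inhibitor MC_2580 together with retinoic acid (RA) at 0.01 µM were compared with NB4 cells treated for 24 h with RA alone at 1 µM. The comparison was made on ChIP-seq peak lists of H3K4me1, H3K4me2, H3K4me3 and H3K27ac, with 1 library per mark and condition, so it used 8 of the 25 samples of the series. In each mark a peak of one list with no peak of the other list overlapping it by at least 1 base was called combination-only or RA 1 µM-only, and every other peak was called shared. The lists held 72810 combination peaks and 64642 RA 1 µM peaks for H3K4me1, and 45463 combination and 46010 RA 1 µM peaks for H3K4me2. They held 26963 combination and 26271 RA 1 µM peaks for H3K4me3, and 41191 combination and 38808 RA 1 µM peaks for H3K27ac. NB4 is an established human cell line from an acute promyelocytic leukemia, grown here in serum-containing medium. The same marks in cells given MC_2580 alone, RA 0.01 µM alone or DMSO, an LSD1 ChIP in DMSO-treated cells (12562 peaks) and in MC_2580-treated cells (18822 peaks), and a GFI1 ChIP in untreated cells (29601 peaks) served as further reference points. No source used here states the dose of MC_2580.

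LSD1 (KDM1A) is a histone demethylase that removes methyl groups from mono- and dimethylated lysine 4 of histone H3 and does not act on the trimethylated form. It also serves as a scaffold in repressor complexes, and the transcriptional repressor GFI1, which controls myeloid differentiation, recruits it through its SNAG domain. H3K4me1 and H3K4me2 mark enhancers and the flanks of promoters, H3K4me3 marks active promoters, and H3K27ac marks active enhancers and promoters. RA binds the retinoic acid receptor and drives acute promyelocytic leukemia cells, which carry the PML-RARA fusion, towards granulocytes.

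The combination and RA 1 µM differed both in the inhibitor and in the dose of RA, and these cannot be told apart within this pair. With 1 library per mark and condition there was no spread between replicates, no test was made, and every statement is about these libraries. Intervals are 95% intervals that cover counting error only, and neighbouring peaks are not independent. The depth of the libraries is unknown, since the files hold no read counts. The H3K4me3 library of the combination has a title that names RA at 1 µM, whereas its treatment field names 0.01 µM like the other combination libraries. It was grouped by its treatment field, and each H3K4me3 value below rests on that reading. LSD1 and GFI1 were not profiled in cells given RA or the combination, so overlap with their peaks describes where these proteins lay in cells not given RA.

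The combination list held more peaks of its own than the RA 1 µM list in all 4 marks, and the excess was largest for H3K4me1. There, 14630 combination-only peaks, 20.1% of the combination list, stood against 3369 RA 1 µM-only peaks, 5.21% of the RA 1 µM list, a log2 ratio of 2.12. For H3K4me2 there were 8358 combination-only peaks (18.4%) and 5234 RA 1 µM-only peaks (11.4%), a log2 ratio of 0.68. H3K27ac had 10077 combination-only peaks (24.5%) and 7940 RA 1 µM-only peaks (20.5%), with a log2 ratio of 0.34. For H3K4me3 the numbers were close, with 3833 combination-only peaks (14.2%) and 3538 RA 1 µM-only peaks (13.5%), and the log2 ratio was 0.12. After both lists of a mark were merged into regions, both conditions had a peak in 75.4% of the regions for H3K4me1, 71.7% for H3K4me2, 75.01% for H3K4me3 and 60.7% for H3K27ac.

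**Figure D1:**
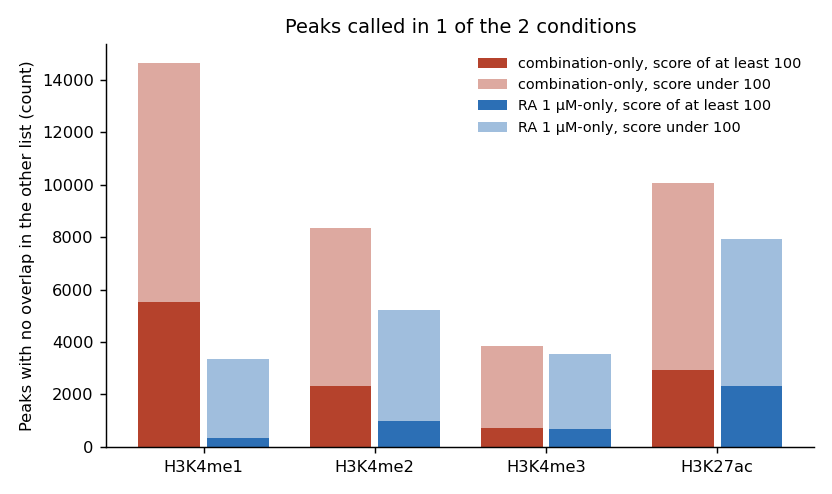
Number of peaks of each mark called in one condition without an overlapping peak in the other, for the combination and for RA 1 µM, with peaks scoring at least 100 in the dark part of each bar. Combination-only peaks outnumbered RA 1 µM-only peaks in each mark, from 14630 against 3369 for H3K4me1 to 3833 against 3538 for H3K4me3.

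The excess in H3K4me1 and the near balance in H3K4me3 moved with the length and the strength of the lists. With the same number of top-scoring peaks kept in both lists of a mark, the log2 ratio was 0.73 for H3K4me1, 0.78 for H3K4me2, -0.14 for H3K4me3 and -0.0066 for H3K27ac. The excess for H3K27ac therefore did not hold at equal list length, and that for H3K4me3 turned round, as it did with a minimum score of 100 (log2 ratio of -0.25). For H3K4me2 the ratio turned to -0.055 when peaks had to overlap by 50% of both their lengths to count as shared.

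Condition-specific peaks were narrow and weak next to shared ones. The median width of H3K4me1 peaks was 1207 bases for combination-only and 1080 bases for RA 1 µM-only peaks, against 2398 bases for shared peaks of the combination list and 2080 bases for shared peaks of the RA 1 µM list. The peak score is the authors' own value per peak. It has a floor of 50 in these lists and serves here to rank peaks of one list and to set minimum scores. Of the H3K4me1 peaks, 5540 combination-only and 338 RA 1 µM-only peaks reached a score of 100. For H3K4me2 the same score was reached by 2304 combination-only and 996 RA 1 µM-only peaks, for H3K4me3 by 737 combination-only and 677 RA 1 µM-only peaks, and for H3K27ac by 2938 combination-only and 2320 RA 1 µM-only peaks. Combination-only peaks made up 9.04% of all bases under H3K4me1 peaks in the combination list, and RA 1 µM-only peaks made up 2.15% of the bases in the RA 1 µM list. For H3K27ac these shares of bases were 14.1% in the combination list and 10.8% in the RA 1 µM list.

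Combination-only peaks overlapped an LSD1 peak of DMSO-treated cells more often than RA 1 µM-only peaks in each of the 4 marks. The widest gap was in H3K4me3, where 1001 combination-only peaks (26.1%) and 193 RA 1 µM-only peaks (5.46%) carried LSD1, a difference of 20.7 percentage points with an interval of 19.1 to 22.2. For H3K4me2, 24.8% of the combination-only and 7.64% of the RA 1 µM-only peaks carried LSD1, and the difference was 17.2 points (16.0 to 18.4). These shares can be read against the whole lists, in which LSD1 lay in 32.8% of combination and 30.5% of RA 1 µM peaks for H3K4me3, and in 30.0% of combination and 28.7% of RA 1 µM peaks for H3K4me2. By share of peaks both classes stood below their lists, but they are also narrower than other peaks. Sites per Mb covered do not settle this, because every site touching a peak by at least 1 base was counted. LSD1 sites had a median width of 2124 bases, so the number per Mb rises as peaks get narrower. Combination-only H3K4me2 peaks had a median of 548 bases, against 982 in the whole combination list. Per Mb covered, combination-only peaks held 362 LSD1 sites for H3K4me2, against 172 over the whole combination list, and 173 for H3K4me3, against 109. RA 1 µM-only peaks held 181 sites per Mb for H3K4me2, against 183 over the whole RA 1 µM list, and 38.8 for H3K4me3, against 98.6. For H3K27ac the density was 42.8 sites per Mb in combination-only peaks, against 71.4 in the whole combination list, and 17.9 in RA 1 µM-only peaks, against 69.7 in the whole RA 1 µM list.

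In H3K27ac the LSD1 share was 8.75% (882 peaks) of the combination-only and 3.38% (268 peaks) of the RA 1 µM-only peaks, a difference of 5.38 points (4.70 to 6.06), against 22.9% of all combination and 22.6% of all RA 1 µM peaks. H3K4me1 had the lowest shares, with 2.82% (413 peaks) of the combination-only and 0.564% (19 peaks) of the RA 1 µM-only peaks, against 17.1% of all combination and 19.4% of all RA 1 µM peaks. Most H3K4me1 peaks that were specific to the combination therefore lay away from LSD1. The H3K4me1 difference of 2.26 points (1.89 to 2.63) depended on the definition of a shared peak. It was -6.63 points when 50% reciprocal overlap was required and -9.15 points when only the 500 bases on either side of a peak's centre were compared. In the other 3 marks the difference kept its sign but shrank. It was 3.55 points for H3K4me2, 14.1 for H3K4me3 and 2.44 for H3K27ac under reciprocal overlap, and 8.22, 14.3 and 1.48 points around the centres.

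GFI1 followed the same order. It lay in 26.3% of combination-only and 6.11% of RA 1 µM-only H3K4me3 peaks, and in 22.6% of combination-only and 5.50% of RA 1 µM-only H3K4me2 peaks. For H3K27ac, 14.9% of combination-only and 5.66% of RA 1 µM-only peaks overlapped GFI1. For H3K4me1 the shares were 8.39% of combination-only and 2.61% of RA 1 µM-only peaks, and this difference of 5.78 points became -2.15 points under 50% reciprocal overlap. Under that definition the GFI1 difference was 8.30 points for H3K4me2, 14.5 for H3K4me3 and 5.35 for H3K27ac. Over whole lists GFI1 lay in 19.6% of combination and 20.6% of RA 1 µM peaks for H3K4me1, and in 24.6% of combination and 21.7% of RA 1 µM peaks for H3K4me2. For H3K4me3 it lay in 31.3% of combination and 29.0% of RA 1 µM peaks, and for H3K27ac in 24.3% of combination and 22.7% of RA 1 µM peaks. Peaks with both LSD1 and GFI1 made up 17.5% of combination-only and 2.26% of RA 1 µM-only H3K4me3 peaks, 13.8% of combination-only and 1.93% of RA 1 µM-only H3K4me2 peaks, and 6.32% of combination-only and 1.25% of RA 1 µM-only H3K27ac peaks. LSD1 without GFI1, by contrast, lay in 2.43% of combination-only and 2.13% of RA 1 µM-only H3K27ac peaks, and the interval of that difference, -0.13 to 0.74 points, included 0. Whole combination lists had both factors in 19.95% of peaks for H3K4me3, 15.4% for H3K4me2 and 14.05% for H3K27ac, above the combination-only shares. In whole RA 1 µM lists these were 18.15%, 13.6% and 13.4%. LSD1 without GFI1 lay in 8.84% of all combination and 9.28% of all RA 1 µM H3K27ac peaks.

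**Figure D2:**
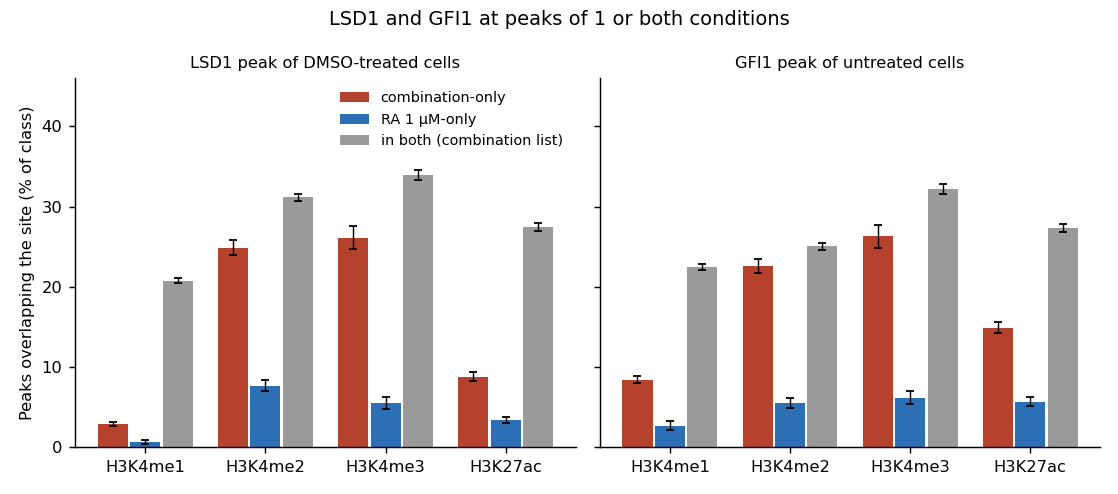
Share of combination-only and RA 1 µM-only peaks of each mark that overlapped an LSD1 peak of DMSO-treated cells or a GFI1 peak of untreated cells, beside peaks of the combination list shared with RA 1 µM (grey), with 95% exact binomial intervals. Both factors lay more often in combination-only than in RA 1 µM-only peaks, and the gap was widest for H3K4me3, with LSD1 in 26.1% of combination-only and 5.46% of RA 1 µM-only peaks.

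Peaks of both kinds were found with and without the factors. Neither LSD1, in either of its lists, nor GFI1 lay in 55.2% of combination-only and 80.4% of RA 1 µM-only H3K4me2 peaks, nor in 59.6% of combination-only and 86.2% of RA 1 µM-only H3K4me3 peaks. For H3K27ac these shares without a factor were 79.2% of combination-only and 89.5% of RA 1 µM-only peaks, and for H3K4me1 they were 87.9% of combination-only and 96.3% of RA 1 µM-only peaks. Over whole lists, neither factor lay in 45.4% of combination and 47.1% of RA 1 µM peaks for H3K4me2. For H3K4me3 this held for 41.9% of combination and 44.8% of RA 1 µM peaks, and for H3K27ac for 56.3% and 56.9%. For H3K4me1 it held for 63.7% of combination and 60.1% of RA 1 µM peaks. Both specific classes thus lacked the factors more often than their lists. Some RA 1 µM-only peaks did carry LSD1, among them 400 of H3K4me2 and 268 of H3K27ac.

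Wider peaks can meet more sites by their size alone, so the shares were also taken within classes of width. They were taken within classes of score too. Among H3K4me3 peaks of 1 to 2 kb, LSD1 lay in 24.7% of 2503 combination-only and 5.81% of 2359 RA 1 µM-only peaks. Among H3K27ac peaks of that width it lay in 4.95% of 5431 combination-only and 2.42% of 4458 RA 1 µM-only peaks. The LSD1 share of combination-only peaks climbed with the score in each mark, whereas that of RA 1 µM-only peaks stayed nearly flat in H3K4me2 and H3K4me3. In the class scoring 150 or more, 66.3% of 252 combination-only H3K4me3 peaks carried LSD1, against 5.33% of 169 RA 1 µM-only peaks. In the same class of H3K27ac the shares were 26.6% of 1457 combination-only and 6.15% of 1025 RA 1 µM-only peaks.

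**Figure D3:**
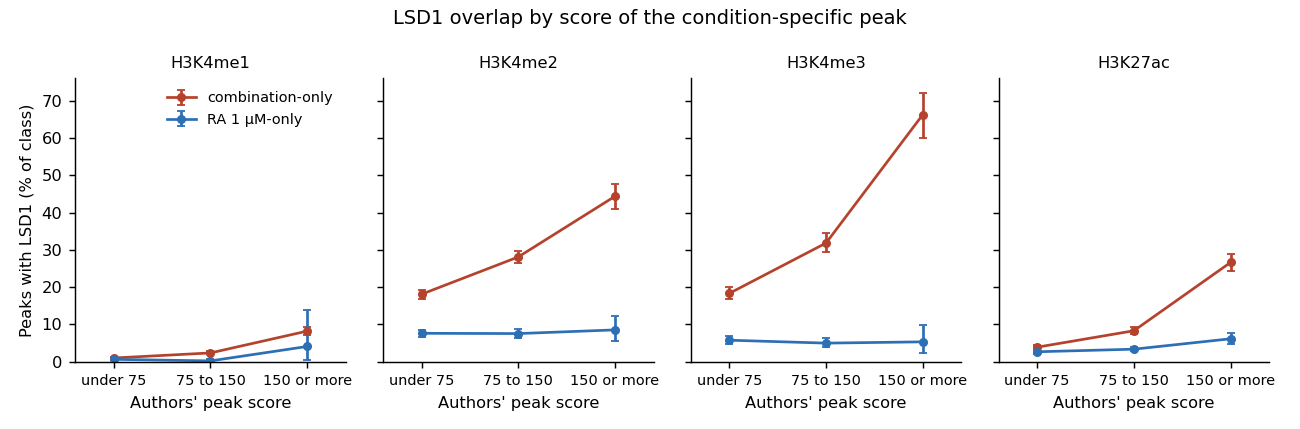
LSD1 share of combination-only and RA 1 µM-only peaks in 3 classes of the authors' peak score, with 95% exact binomial intervals. In the class of 150 or more, 66.3% of combination-only and 5.33% of RA 1 µM-only H3K4me3 peaks overlapped LSD1, and the H3K4me1 class of RA 1 µM-only peaks there holds few peaks, hence its long interval.

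The imbalance between the conditions, as a ratio of counts, was steepest at LSD1 itself. Peaks overlapping LSD1 were, however, the least often specific to 1 condition, in each mark and either list. In the combination list, 3.31% of H3K4me1 peaks at LSD1 were combination-only, against 24.9% beyond 100 kb. For H3K4me3 this was 11.3% against 15.6%. In the RA 1 µM list, 2.4% of H3K4me3 peaks at LSD1 were RA 1 µM-only, against 20.5% beyond 100 kb. Among H3K4me3 peaks overlapping LSD1 there were 5.19 combination-only peaks for each RA 1 µM-only peak (interval 4.44 to 6.08). The ratio was 1.28 for H3K4me3 peaks within 5 kb of LSD1 without touching it, and 0.726 (0.666 to 0.792) for those over 100 kb away, where RA 1 µM-only peaks were the more numerous. H3K27ac showed a shallower gradient, from 3.29 at LSD1 to 1.01 beyond 100 kb. For H3K4me2 the ratio was 5.19 at LSD1 and between 1.28 and 1.34 in every class of distance beyond it. H3K4me1 had an excess of combination-only peaks at all distances, with a ratio of 21.7 (13.7 to 36.5) at LSD1 and 3.82 (3.57 to 4.08) beyond 100 kb.

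**Figure D4:**
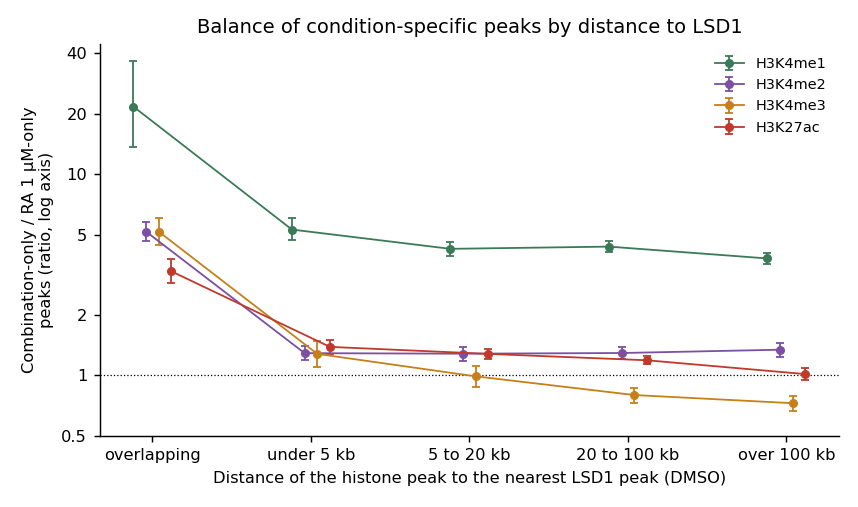
Ratio of combination-only to RA 1 µM-only peaks, on a log axis, by distance of the peak to the nearest LSD1 peak of DMSO-treated cells, with 95% intervals. The ratio was highest for peaks that overlapped LSD1 in each mark, and for H3K4me3 it was 0.726 beyond 100 kb.

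The same comparison was then read from the LSD1 sites, which are the same regions for all marks. Of the 12562 sites in DMSO-treated cells, H3K4me2 was called in the combination and not in RA 1 µM at 1155 (9.19%), and in RA 1 µM and not in the combination at 119 (0.947%). H3K4me3 was called in the combination alone of the pair at 1006 sites (8.01%) and in RA 1 µM alone at 206 (1.64%). H3K27ac was likewise found in the combination and not in RA 1 µM at 1006 sites (8.01%), and the other way at 290 (2.31%). For H3K4me1 the numbers were 366 (2.91%) in the combination and 17 (0.135%) in RA 1 µM, since 94.8% of the sites had H3K4me1 in both. The ratio of the counts was 9.71 for H3K4me2 at LSD1 sites, against 1.60 over all peaks, and 3.47 for H3K27ac, against 1.27 over all peaks. It was 21.5 for H3K4me1, against 4.34 over all peaks, and 4.88 for H3K4me3, against 1.08. At 669 sites (5.33%), 2 or more marks were called in the combination and not in RA 1 µM, and at 23 sites (0.183%) 2 or more marks were called the other way. Combination-only peaks were the more numerous over all peaks as well.

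Sites with GFI1 and without H3K4me3 in DMSO-treated cells showed the widest difference in percentage points. At these 2637 sites H3K4me2 was called in the combination and not in RA 1 µM at 24.0% and the other way at 1.67%. H3K4me3 was called in the combination and not in RA 1 µM at 21.9% and the other way at 2.66%. H3K27ac was called in the combination and not in RA 1 µM at 19.5% and the other way at 2.92%. For H3K4me1 the counts were 226 sites in the combination and 1 site in RA 1 µM. At the 2183 LSD1 sites with neither GFI1 nor H3K4me3 in DMSO-treated cells, the gap was narrower. There, H3K4me2 was called in the combination alone of the pair at 12.5% and in RA 1 µM alone at 2.84%. H3K27ac was called there in the combination alone of the pair at 7.97% and in RA 1 µM alone at 4.81%. At the 4497 sites with both GFI1 and H3K4me3 in DMSO-treated cells, H3K27ac was called in the combination and not in RA 1 µM at 5.00% and the other way at 1.00%. At 89.5% of those sites both conditions had H3K27ac, and at 94.6% both had H3K4me2, which leaves few sites that could differ. As a ratio the H3K4me2 difference was wider there, 163 sites in the combination alone of the pair and 6 in RA 1 µM alone (27.2), against 14.4 at the sites with GFI1 and no H3K4me3.

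**Figure D5:**
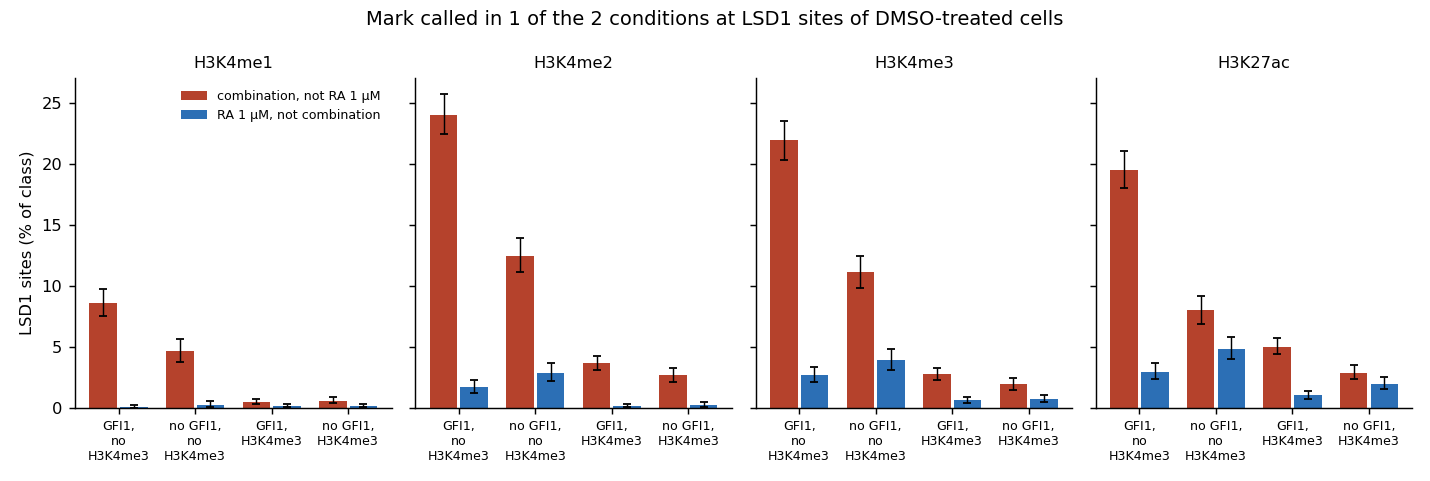
Share of LSD1 sites of DMSO-treated cells with a mark called in the combination and not in RA 1 µM, and the reverse, split by GFI1 and by H3K4me3 in DMSO-treated cells, with 95% exact binomial intervals. For H3K27ac the shares were 19.5% in the combination and 2.92% in RA 1 µM at sites with GFI1 and no H3K4me3.

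At the sites with GFI1 and no H3K4me3 in DMSO-treated cells, the single treatments place the pair. H3K4me2 was called at 64.2% of them in the combination and 41.9% in RA 1 µM, beside 71.8% with MC_2580 alone, 39.2% with RA 0.01 µM and 47.8% in DMSO. H3K4me3 was called at 37.7% in the combination and 18.4% in RA 1 µM, beside 49.1% with MC_2580 and 23.1% with RA 0.01 µM, the DMSO value being 0 by the choice of sites. In H3K4me2 and H3K4me3 the combination lay between RA 1 µM and MC_2580 alone. MC_2580 also had the longest list of the 5 conditions in both marks, with 50736 H3K4me2 and 29872 H3K4me3 peaks. H3K4me1 was called at 96.7% in the combination and 88.2% in RA 1 µM, beside 95.4% with MC_2580, 85.4% with RA 0.01 µM and 90.7% in DMSO. For H3K27ac the shares were 67.5% in the combination and 50.9% in RA 1 µM, beside 53.5% with MC_2580, 46.7% with RA 0.01 µM and 52.4% in DMSO. The combination thus had the highest H3K4me1 and H3K27ac shares of the 5 libraries at these sites. Its H3K4me1 list was also the longest of the 5, with 72810 peaks. Its H3K27ac list, with 41191 peaks, was shorter than that of RA 0.01 µM, with 55793. A longer list can reach more sites, and the part of list length in these orders was not tested. At sites with neither GFI1 nor H3K4me3 in DMSO-treated cells the H3K27ac shares were 74.0% in the combination, 70.9% in RA 1 µM, 55.6% with MC_2580, 74.3% with RA 0.01 µM and 69.0% in DMSO, and there the combination and RA 0.01 µM stood close together.

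Many condition-specific peaks were also called in one of the other conditions. Of the combination-only peaks, 59.8% of H3K4me2 and 60.3% of H3K4me3 overlapped a peak of MC_2580 alone, against 85.3% and 90.6% of all combination peaks. For H3K27ac 17.2% of combination-only peaks overlapped MC_2580, against 51.9% of all combination peaks, and 48.9% overlapped RA 0.01 µM, against 77.1% of all combination peaks. The H3K27ac lists differ in length, with 24552 peaks for MC_2580 and 55793 for RA 0.01 µM, and the part of list length in these shares was not tested. Of the RA 1 µM-only peaks, 30.1% of H3K4me2 and 52.8% of H3K4me3 overlapped a peak of MC_2580 alone, against 83.5% and 90.0% of all RA 1 µM peaks. For H3K27ac 51.7% of RA 1 µM-only peaks overlapped one of RA 0.01 µM, against 79.85% of all RA 1 µM peaks. Among the combination-only peaks of H3K4me2, H3K4me3 and H3K27ac, the LSD1 share was highest in those also called with MC_2580 and not with RA 0.01 µM, with or without a peak in DMSO. Without one in DMSO, LSD1 lay in 41.5% of 1040 H3K4me3 peaks, 35.5% of 1646 H3K4me2 peaks and 34.4% of 428 H3K27ac peaks. With one in DMSO, it lay in 54.1% of 157 H3K4me3 peaks, 35.3% of 1282 H3K4me2 peaks and 36.4% of 418 H3K27ac peaks. The next shares take every peak called with MC_2580, whatever the other conditions. Among all combination peaks of that kind, LSD1 lay in 34.96% for H3K4me3, 33.2% for H3K4me2 and 37.2% for H3K27ac. Among combination-only ones it lay in 34.1%, 32.3% and 26.2%, in the same order. The H3K4me3 and H3K4me2 shares were thus near those of all such peaks, and the H3K27ac share was below. Combination-only peaks called in none of the other 3 conditions carried LSD1 in 15.2% of 1071 H3K4me3 peaks, 13.7% of 2558 H3K4me2 peaks and 5.50% of 3964 H3K27ac peaks. Combination-only H3K27ac peaks shared with RA 0.01 µM alone of the 3 conditions had LSD1 in 3.74% of 3184. Of the combination-only H3K27ac peaks called with RA 0.01 µM, whatever the other conditions, 6.9% had LSD1. Taken in the same way, 26.1% of all combination H3K27ac peaks called with RA 0.01 µM had it.

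The same shares were taken for other pairs of conditions, which share libraries with this pair and are not independent of it. For H3K4me3 the LSD1 share of condition-specific peaks was 20.7 points higher for the combination than for RA 1 µM. The combination gave 21.1 points against RA 0.01 µM, -1.86 points against MC_2580 and 9.96 points against DMSO. RA 1 µM gave -2.62 points against RA 0.01 µM and -9.17 points against DMSO, and MC_2580 gave 14.5 points against DMSO. For H3K27ac the combination gave 5.38 points against RA 1 µM, 10.0 against RA 0.01 µM, -3.08 against MC_2580 and 1.17 against DMSO. RA 1 µM gave 6.20 points against RA 0.01 µM, a larger difference than that of the combination against RA 1 µM in a pair with no inhibitor, and -3.98 points against DMSO. MC_2580 gave 8.43 points against DMSO for H3K27ac.

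A larger share of combination-only than of RA 1 µM-only peaks coincided with another mark. Combination-only peaks were also more numerous in each mark, which gives them more peaks to coincide with, and the part of this was not tested. Of the combination-only H3K4me3 peaks, 28.2% overlapped a place that was also combination-only in at least 1 other mark, and 8.73% of the RA 1 µM-only H3K4me3 peaks did so for RA 1 µM. For H3K27ac these shares were 21.5% of combination-only and 7.49% of RA 1 µM-only peaks. They were 25.2% and 14.0% for H3K4me2, and closest for H3K4me1, at 13.3% and 10%. Places specific to the combination in all 4 marks held 9 H3K27ac peaks, and no RA 1 µM-only peak of any mark lay in a place specific to RA 1 µM in all 4. The LSD1 share of combination-only H3K27ac peaks was 6.41% where H3K27ac alone was combination-only, 13.8% with 1 further mark and 43.8% with 2 further marks. Of the 9 peaks specific in all 4 marks, 55.6% had LSD1. RA 1 µM-only H3K27ac peaks had LSD1 in 3.46% with 1 mark and 2.42% with 2.

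The top regions of each class, 3 per mark, were read one by one. Both LSD1 of DMSO-treated cells and GFI1 lay in 9 of the 12 combination-only and in 5 of the 12 RA 1 µM-only regions, and the marks differed. In H3K4me3 all 3 combination-only and 1 of 3 RA 1 µM-only regions had both factors, and in H3K4me2 it was 2 of the combination-only and 0 of the RA 1 µM-only regions. In H3K27ac all 3 of either class had both, and in H3K4me1 it was 1 of 3 in either class. Over the whole classes, both factors lay in 17.5% of combination-only and 2.26% of RA 1 µM-only H3K4me3 peaks. These shares were 13.8% and 1.93% for H3K4me2, 6.32% and 1.25% for H3K27ac, and 1.63% and 0.267% for H3K4me1. Every region read was wider than the median of its class. Wider peaks can meet more sites, and the part of width was not tested. Positions are on hg18, the build of the deposited peaks, counted from 1, and no gene is named because an annotation of that build was not used here.

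The top-scoring combination-only H3K4me3 peak, at chr6:37028673-37034208, had a score of 3100 in the combination and no H3K4me3 peak in RA 1 µM, RA 0.01 µM or DMSO, while MC_2580 alone had one of 2914. It covered LSD1 with a score of 3100 and GFI1 with a score of 3028. H3K27ac was called there in the combination at 1938 and not in RA 1 µM, and H3K4me1 was called in both, at 3100 in the combination and 254 in RA 1 µM. The next, on chromosome 8, scored 1370 in the combination and had LSD1 at 3198 and GFI1 at 1337. The one ranked 3, at chr16:83725098-83729993, had H3K4me3 at 1004 in the combination and 455 with MC_2580, and none in RA 1 µM, with LSD1 at 2356 and GFI1 at 1022.

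The top RA 1 µM-only H3K4me3 peak, chr11:129502796-129508203, scored 2198 in RA 1 µM and 466 with RA 0.01 µM, had neither LSD1 nor GFI1, and had H3K27ac at 3100 in both the combination and RA 1 µM. The next, chr4:124693745-124697719, scored 618 in RA 1 µM and 512 with RA 0.01 µM and also had neither factor. The one ranked 3, chr2:72004825-72011254, scored 545 and carried LSD1 at 487 and GFI1 at 65.1.

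Among combination-only H3K27ac peaks, 11 tied at the ceiling of 3100. The first of these, chosen by its breadth across marks and its width, lay at chr4:40314419-40322831, and had H3K27ac at 3100 in the combination, 2630 with MC_2580 and 248 in DMSO, with none in RA 1 µM or RA 0.01 µM. LSD1 scored 3100 and GFI1 2246 there. The next, at chr3:58430238-58436931, had H3K27ac at 3100 in the combination and 1958 with MC_2580 and no peak in the other 3 conditions, with both LSD1 and GFI1 at 3100. In both places H3K4me2 and H3K4me3 were also called in the combination and not in RA 1 µM. The one ranked 3, on chromosome 8, had LSD1 at 928 and GFI1 at 358.

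The top RA 1 µM-only H3K27ac peak, chr19:51905156-51944197, was 39042 bases wide and scored 2126, and the other conditions with a peak there were DMSO at 964 and RA 0.01 µM at 94.5. It carried LSD1 at 847 and GFI1 at 1049, and H3K4me3 was at 3100 in all 5 conditions. The next, chr5:10493981-10505435, scored 1768 and carried LSD1 at 331 and GFI1 at 283. The one ranked 3, chr12:88307954-88316699, scored 1602 and carried LSD1 at 406 and GFI1 at 797.

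The 100 kb window with the most combination-only H3K27ac peaks, chr4:40300001-40400000, held 13 of them, with 15 H3K27ac peaks in the combination, 2 in RA 1 µM, 9 with MC_2580, 4 with RA 0.01 µM and 2 in DMSO, and 3 LSD1 peaks of DMSO-treated cells and 6 GFI1 peaks. The window with the most RA 1 µM-only H3K27ac peaks, chr11:45500001-45600000, held 11, with 7 H3K27ac peaks in the combination and 17 in RA 1 µM, and 2 LSD1 peaks of DMSO-treated cells and no GFI1 peak.

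For H3K4me2 the top combination-only peak, chr16:85525642-85526556, scored 1680 in the combination and 1340 with MC_2580, and overlapped LSD1 at 646 and GFI1 at 185.5. All 4 marks were called there in the combination and none in RA 1 µM. The next, chr3:126794375-126794954, scored 1630 in the combination and 814 with MC_2580 and had neither LSD1 of DMSO-treated cells nor GFI1. The one ranked 3, chr22:41122638-41123397, scored 1516 in the combination and 2877 with MC_2580 and overlapped LSD1 at 3100 and GFI1 at 2626. The top RA 1 µM-only H3K4me2 peak, chr17:15527777-15528747, scored 609.5 in RA 1 µM, and 51.9 to 101.5 in the other 3 conditions with a peak, and had neither factor. The next, on chromosome 8, had neither factor, and the one ranked 3, chr7:75278763-75279484, scored 438 and had neither LSD1 of DMSO-treated cells nor GFI1.

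The first combination-only H3K4me1 peak, chr17:38138310-38144662, scored 2557 in the combination and 299 with MC_2580, had no LSD1 peak and had GFI1 at 89.8, and all 4 marks were called there in the combination and none in RA 1 µM. The next, chr18:22474804-22479729, had no LSD1 peak either and had all 4 marks in the combination and with MC_2580 and none in RA 1 µM, RA 0.01 µM or DMSO. The one ranked 3, chr9:94939539-94944631, scored 1987 in the combination and carried LSD1 at 427 and GFI1 at 73.4. Of the RA 1 µM-only H3K4me1 peaks, the first, chr19:10689641-10695755, scored 914.5 and had LSD1 at 319 and GFI1 at 204, and H3K4me3 was at 3100 there in all 5 conditions. The other two, chr6:15448030-15456282 and chr5:56168081-56171034, had neither factor.

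Of the 5 widest H3K27ac places called in the combination and not in RA 1 µM in all 4 marks, 2 carried LSD1 and GFI1. Over all 9 such H3K27ac peaks, LSD1 lay in 55.6%. One of these, chr1:243744573-243748036, had H3K27ac at 330 in the combination and 136 with MC_2580 and LSD1 at 3046, and the other, on chromosome 8, had LSD1 at 1266. The place on chromosome 18 named above had GFI1 alone of the factors, and chr19:47663594-47668586 and chr3:72804551-72806833 had neither.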

How the data were processed

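ChIP-seq of NB4 cells was deposited as 1 peak list per library. Per the submitters' processing notes, the tools included bcl2fastq 2, CASAVA 1.8, FastQC 0.10.0 and 0.11.5, Bowtie 1.0.1 and MACS 1.4.1, with hg18 as build. The score in the deposited lists is the authors' value per peak, with a lowest value of 50 in the histone lists, 234 for LSD1 in DMSO and 357 for LSD1 in MC_2580. No source used here states the filter behind the LSD1 values. No file holds reads, so depth is unknown. Peaks were overlapped with Python 3.11.15 and NumPy 2.4.6, after 4 peaks that started before position 1 were set to start at it. Intervals came from SciPy 1.17.1 (exact Clopper-Pearson for shares, normal for differences). Simulated peak lists with known overlaps were used to test the code. With 1 library per group no test was made. Regions named are the 3 top-scoring condition-specific peaks per mark and condition (scores over 3100 taken as 3100, ties by marks, then width), the best with both factors, the densest 100 kb windows and places specific in all 4 marks. Positions of those on chromosome 8 are not printed. The condition-specific peaks, comparisons and lists were chosen with earlier results of these data known. The alternatives tried are a minimum score of 100, a threshold on one list only, 50% reciprocal overlap, peaks within 1 kb joined, lists of equal length, 500 bases on either side of the centre, and other LSD1 lists.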

Additional observations from a re-analysis of the deposited data

How the results depend on the processing

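Values are given for combination-only against RA 1 µM-only peaks, and the cause of each move was not tested. Over all alternatives, 6 of 24 log2 ratios stayed within counting error of the value in the report, 14 moved and 4 reversed. Of 35 differences in LSD1 share 9 stayed, 24 moved and 2 reversed, and of 27 differences in GFI1 share 5 stayed, 20 moved and 2 reversed. All reversals of the LSD1 and GFI1 differences were in H3K4me1.
With a minimum score of 100 in both lists the log2 ratio was 3.17 for H3K4me1, 0.81 for H3K4me2, -0.25 for H3K4me3 and 0.11 for H3K27ac, the LSD1 difference was 3.00, 24.1, 30.3 and 11.7 points in the same order of marks, and the GFI1 difference was 6.53, 22.8, 28.4 and 16.5 points. With the score threshold on the specific peak only, the log2 ratio was 4.04 for H3K4me1 and 1.21 for H3K4me2, the LSD1 difference was 4.38, 30.7, 42.5 and 13.3 points, and the GFI1 difference was 7.996, 31.1, 43.7 and 19.9 points.
Under 50% reciprocal overlap the log2 ratio was 0.75, -0.055, 0.20 and 0.23, the LSD1 difference was -6.63, 3.55, 14.1 and 2.44 points, and the GFI1 difference was -2.15, 8.30, 14.5 and 5.35 points. With peaks cut to 500 bases on either side of the centre the log2 ratio was 0.82 for H3K4me1, 0.29 for H3K4me2 and 0.23 for H3K27ac, the LSD1 difference was -9.15, 8.22, 14.3 and 1.48 points, and the GFI1 difference was -2.77, 12.6, 13.6 and 3.91 points.
With lists of equal length the log2 ratio was 0.73, 0.78, -0.14 and -0.0066, the LSD1 difference was 3.19 for H3K4me1 and 6.396 for H3K27ac, and the GFI1 difference was 7.62 for H3K4me1 and 10.6 for H3K27ac. Joining peaks within 1 kb gave a log2 ratio of 0.73 for H3K4me2 and GFI1 differences of 6.82 for H3K4me1 and 19.6 for H3K4me2. With the LSD1 list of MC_2580 the difference was 3.48 for H3K4me1 and 19.2 for H3K4me2, and with the DMSO list limited to scores of at least 357 it was 1.24, 12.5, 15.0 and 4.28 points. Limiting peaks to H3K4me1 of both conditions, an alternative chosen after seeing the data, gave LSD1 differences of 27.4 for H3K4me3 and 12.9 for H3K27ac and GFI1 differences of 26.5 and 19.0 points.
No paired analysis was possible because each group is 1 library with no replicate number. Depth is unknown, so a mark missing from a list may be below the authors' threshold in that library.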

Other observations

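GFI1 sites with no LSD1 peak in either LSD1 list also differed between the conditions. At these 17656 sites H3K4me1 was called in the combination and not in RA 1 µM at 7.59% and the other way at 0.889%. The share with the mark in the combination and not in RA 1 µM was 3.37% for H3K4me2, 1.99% for H3K4me3 and 6.86% for H3K27ac, and the share with it in RA 1 µM and not in the combination was 0.810% for H3K4me2, 1.21% for H3K4me3 and 3.48% for H3K27ac. Of the LSD1 sites of DMSO-treated cells, 978 were not in the LSD1 list of MC_2580-treated cells. The MC_2580 list has a lowest score of 357, against 234 in DMSO, so absence from it cannot be read as loss of LSD1. H3K27ac was called in the combination and not in RA 1 µM at 18.0% of those 978 sites and at 7.17% of the 11584 sites found in both LSD1 lists, and in RA 1 µM and not in the combination at 3.48% and 2.21%. GFI1 lay at 71.4% of the 978 sites and 55.6% of the 11584.

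Sites in the highest quartile of LSD1 scores had H3K27ac in the combination and not in RA 1 µM at 10.7% and the other way at 1.43%, against 7.004% in the combination and not in RA 1 µM and 3.22% the other way for the lowest quartile. The highest quartile was also wider, with a median of 2984 against 1714 bases, and had GFI1 at 80.5% against 39.6%, and the part of these in the difference was not tested. Among peaks that matched one to one between the lists, the median log2 width in the combination over RA 1 µM was 0.15 for H3K4me2. Of all matched H3K4me2 peaks, 75.6% were wider in the combination. This held for 85.7% of those with LSD1 and GFI1 and for 71.7% of those with neither. For H3K4me3 the median was -0.03. The ratio of combination-only to RA 1 µM-only H3K4me1 peaks was above 1 on all 23 chromosomes tested, between 3.61 on chromosome 6 and 7.58 on chromosome 19. For H3K4me3 it was above 1 on 16 of 23, between 0.939 on chromosome X and 1.53 on chromosome 18.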
